A study of Sus scrofa with 2 samples.

Results

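Heterotrimeric G proteins and their regulators, the RGS proteins, were measured in brain and in liver tissue from Sus scrofa of the Rongchang breed, a domestic pig from China. The study sequenced RNA from frozen tissue, with 1 brain library of 23796843 counts and 1 liver library of 31724498 counts. The titles of both samples give the same lane and barcode, so the tissue was taken from the source and tissue labels. Age, sex and brain region are not in the labels, which also do not say whether both tissues came from the same animal and name no treatment. With 1 library per tissue there is no replicate, no test and no p-value, and all intervals below cover counting error only.

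A G protein consists of an alpha subunit, which binds GTP, and a beta-gamma dimer. Receptors of the seven-pass family load the alpha subunit with GTP, and both parts then act on effectors such as adenylate cyclase, phospholipase C beta and potassium channels. RGS proteins end the signal by speeding up GTP hydrolysis on the alpha subunit. Neurons are known for large amounts of Go and of RGS4, and hepatocytes for Gs signalling downstream of glucagon.

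The genes were chosen by the wording of the product column in the authors' table. A row was kept if its product held "guanine nucleotide-binding protein" or "regulator of G-protein signaling", unless the product also held "-like" or "ribosom" or the gene was RGS5. Of 21653 gene names in the table, 46 matched a phrase and 12 were kept. All 12 were placed in the RGS class by this wording, among them RGS7BP, which is an anchor of RGS proteins. No alpha, beta or gamma subunit was among them. The subunits carry product names that end in "-like", or are spelled without the hyphen, and the product of GNAS holds neither phrase. To compare the 4 classes, 35 names of alpha, beta and gamma subunits were therefore added from those rows, along with 8 RGS names ending in "-like". That addition was made after the rule had been applied to the table. GNL3L-like and GNL1-like rows, which are not subunits of the heterotrimer, were left out. A name in the text ending in "-like row" follows the product text, and 45 of the 55 names could be given a gene symbol from the table itself or from the RefSeq genes of assembly Sscrofa11.1. Start and end positions were not used here.

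Markers of both tissues were checked first. All 5 neuron markers with a row, such as SNAP25 and STMN2, were at 4-fold or more in brain, at a summed 3785 CPM in brain and 8.98 CPM in liver. All 6 hepatocyte markers, such as ALB, were at 4-fold or more in liver, at a summed 303 CPM in brain and 375844 CPM in liver. CPM here means counts per 1000000 counts after TMM scaling, a method that sets the scale by the bulk of the genes. The log2 ratio is brain over liver with 1 CPM added to each, and a gene was called at a log2 ratio of 2 or more (brain) or -2 or less (liver). A name entered if either library had 1 CPM or more of it, and 15706 names did. Folds of single genes are ratios of CPM with nothing added, with an exact conditional binomial 95% interval in parentheses. Of the 15706, 14.6% were called in brain and 11.3% in liver, and their median log2 ratio was 0.02.

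All 12 RGS genes kept by the wording entered. Of these, 3 were called in brain, or 25.0% beside the 14.6% of all names, and 0 in liver beside 11.3%, with a median log2 ratio of 1.21. The called genes were RGS4, RGS22 and the anchor RGS7BP, which is counted again among the anchors below. With plain library size, which takes the totals as they are, 6 of the 12 were called in brain, where 24.2% of all names were called in brain and 6.02% in liver. Leaving the 50 highest genes out of the totals also gave 6 of 12, where 19.3% of all names were called in brain and 9.05% in liver. With the 8 RGS names ending in "-like" included, 7 of the 19 that entered were called in brain, or 36.8%, and 0 in liver. Together the 12 genes had 593 CPM in brain and 56.0 CPM in liver. Most of the brain counts belonged to RGS4, which held 79.9% of them (exact 95% interval 79.4 to 80.5), against 12.3% of the liver counts of the 12 genes (10.5 to 14.3). Without RGS4 the sums were 119 CPM in brain and 49.1 CPM in liver. In bulk tissue, fewer cells of a type and less RNA per cell cannot be told apart.

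**Figure D1:**
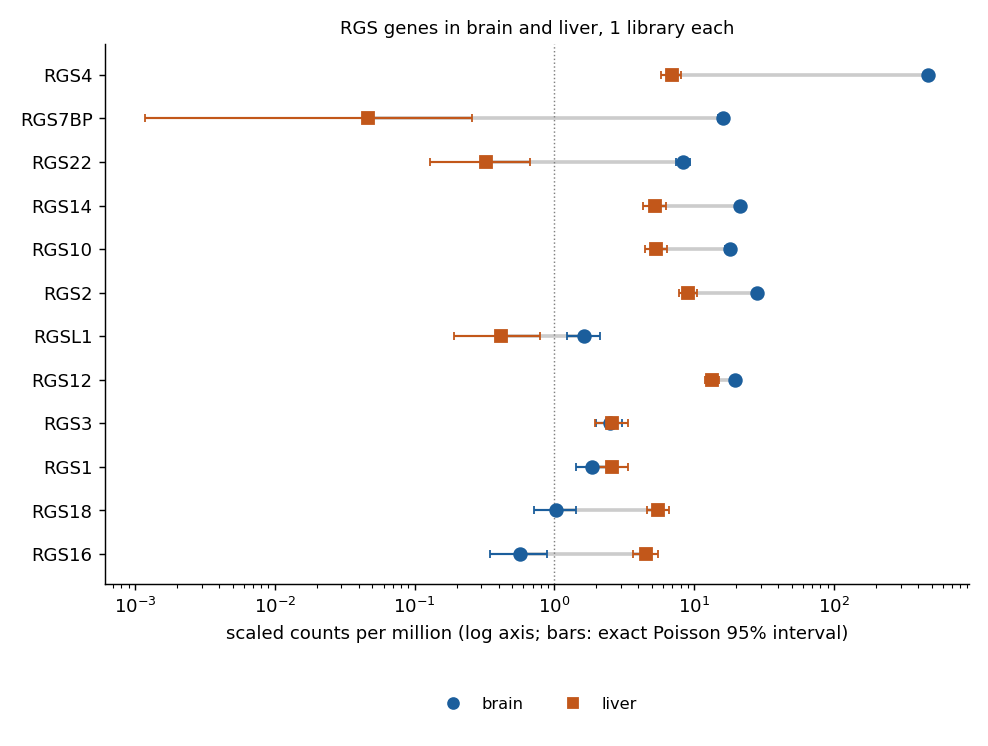
Scaled CPM on a log axis for the 12 RGS genes, brain as circles and liver as squares, with exact Poisson 95% intervals, ordered by the log2 ratio. The dotted line marks 1 CPM. RGS4 stands at 474 CPM in brain and 6.90 CPM in liver, while RGS18 and RGS16 at the bottom lie higher in liver.

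RGS4, a small protein of the R4 subfamily that acts on Gi/o and Gq and is abundant in cortical neurons, had 16566 counts in brain and 149 counts in liver. That is 474 CPM in brain and 6.90 CPM in liver, a 68.7-fold difference (95% interval 58.5 to 81.3) and a log2 ratio of 5.91. Only 1.24% of all names that entered had a higher log2 ratio. The neuron markers were also higher in brain, and so were the astrocyte and oligodendrocyte markers. The latter summed to 2287 CPM in brain, against 35.9 CPM in liver, with AQP4 and MOG at 0 counts in liver. The part of either list in the RGS4 value was not tested.

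Other members of the R4 subfamily lay on either side. RGS2, which acts mainly on Gq, had 28.0 CPM in brain and 9.03 CPM in liver, a 3.10-fold difference (2.65 to 3.63). Its log2 ratio was 1.53, below the call, and reached 2.56 with plain library size. RGS1, known from lymphocytes, had 1.86 CPM in brain and 2.59 CPM in liver. Its fold interval, 0.494 to 1.04 for brain over liver, includes equality. RGS3 had 2.49 CPM in brain and 2.59 CPM in liver (log2 ratio -0.04). The signs of RGS1 and RGS3 turned with plain library size, to log2 ratios of 0.43 and 0.75.

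The RGS3 gene model may be split in this table. Besides the RGS3 row there were a pair of RGS3-like rows, with 8.21 and 30.2 CPM in brain and 2.82 and 3.19 CPM in liver. Their log2 ratios were 1.27 and 2.90. Summed, the 3 rows gave 1430 counts in brain and 186 counts in liver, a 4.75-fold difference (4.07 to 5.56) with a log2 ratio of 2.12, past the call. The RGS3-like rows were given no gene symbol from RefSeq. Whether the 3 rows belong to the same gene, and whether reads were divided among them correctly, could not be checked.

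RGS16 and RGS18 had the lowest ratios of the 12. RGS16, an R4 member known in mouse liver for its response to feeding and fasting, had 20 counts in brain and 98 counts in liver. Its level was 0.572 CPM in brain and 4.54 CPM in liver, 7.93-fold higher in liver (4.87 to 13.5), with a log2 ratio of -1.82. RGS18, known from platelets and megakaryocytes, had 1.03 CPM in brain and 5.56 CPM in liver, 5.39-fold higher in liver (3.69 to 8.06), with a log2 ratio of -1.69. Neither passed the call, because the added 1 CPM shrinks ratios at such low levels, and both did with 0.1 CPM added. With plain library size the log2 ratios of RGS16 and RGS18 were -1.15 and -0.93, and with 5 CPM added -0.78 and -0.81. Platelet markers with a row (3 of 6) summed to 4.69 CPM in brain, against 9.35 CPM in liver, with GP1BA at 0 counts in brain. Most of both sums was TUBB1, at 4.58 CPM in brain and 8.84 CPM in liver, while GP9 had 4 counts in brain and 1 count in liver. The 7 lymphocyte markers summed to 8.67 CPM in brain, against 55.3 CPM in liver, with CD79B at 0 counts in brain. Most of these sums was PTPRC, at 7.47 CPM in brain and 48.8 CPM in liver, while CD79A had 15 counts in brain and 1 count in liver. The part of these markers in the RGS18 and RGS1 values was not tested.

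The R12 subfamily consists of RGS10, a short protein known from microglia and neurons, and of RGS12 and RGS14, larger scaffolds that also bind other signalling proteins. All 3 were higher in brain and none was called. RGS14 had 21.3 CPM in brain and 5.23 CPM in liver, a 4.07-fold difference (3.34 to 5.01) and a log2 ratio of 1.84. RGS10 had 18.1 CPM in brain and 5.37 CPM in liver, a 3.37-fold difference (2.76 to 4.14) and a log2 ratio of 1.58. RGS12 had 19.7 CPM in brain and 13.4 CPM in liver, a 1.47-fold difference (1.28 to 1.69). RGS14 and RGS10 passed the call with plain library size, at 2.82 and 2.57. The 6 myeloid markers summed to 85.6 CPM in brain, against 649 CPM in liver, with none at 0. Of these, CSF1R had 73.8 CPM in brain and 61.0 CPM in liver, CD14 had 6.47 CPM in brain and 435 CPM in liver, while CD163 had 0.572 CPM in brain and 94.4 CPM in liver. Their part in the RGS10 value was not tested.

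RGS7BP, which anchors RGS proteins of the R7 subfamily at the membrane, had nearly all its counts in the brain library. There were 558 counts in brain over 2 rows and 1 count in liver, or 16.0 CPM in brain and 0.0463 CPM in liver. The fold of 345 has a wide interval, 61.6 to 13642, since it rests on 1 liver count, and the log2 ratio was 4.02. RGS22 had 292 counts in brain and 7 counts in liver, a 25.8-fold difference (12.4 to 64.7) and a log2 ratio of 2.82. With 5 CPM added its log2 ratio was 1.33, below the call. RGSL1 had 57 counts in brain and 9 counts in liver, 1.63 CPM in brain and 0.417 CPM in liver (log2 ratio 0.89).

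The R7 proteins form a stable complex with the beta subunit GNB5, and GPR158 is another of their membrane partners. RGS6 had 18.6 CPM in brain and 0.370 CPM in liver, a 50.3-fold difference (25.4 to 117). The RGS7-like row had 21.9 CPM in brain and 2.55 CPM in liver, an 8.58-fold difference (6.52 to 11.5). The next row of the table, RGS7 in RefSeq but a "hypothetical protein" in the table and so outside the wording, had 57.2 CPM in brain and 4.91 CPM in liver, an 11.6-fold difference (9.58 to 14.3). GNB5 had 2628 counts in brain and 149 counts in liver, or 75.2 CPM in brain and 6.90 CPM in liver, a 10.9-fold difference (9.24 to 12.9). GPR158 had 9.93 CPM in brain and 0.0926 CPM in liver, from 347 counts in brain and 2 counts in liver, and was named after its value was seen. All of these rows, like RGS7BP, were called in brain, as were 14.6% of all names. The rows were brought together by hand, so they do not stand for a set fixed in advance. Whether the RGS7-like row and the row next to it belong to the same gene was not checked. With 5 CPM added the RGS7-like row was not called, at a log2 ratio of 1.83. RGS9 and RGS11, the remaining R7 genes, were not analysed here.

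Among the remaining RGS names ending in "-like", RGS17 and RGS20 belong to the RZ subfamily, which acts on Gz and other Gi/o proteins. RGS17 had 15.8 CPM in brain and 0.648 CPM in liver, a 24.5-fold difference (14.4 to 45.0) with a log2 ratio of 3.35, and of 1.88, below the call, with 5 CPM added. RGS20 had 3.58 CPM in brain and 1.44 CPM in liver, with a log2 ratio of 0.91. RGS8, known from cerebellar Purkinje cells in rodents, had 81 counts in brain and 3 counts in liver, a ratio of 16.7 (5.51 to 82.6) and a log2 ratio of 1.54 (3.34 with 0.1 CPM added). RGS21, known from taste cells, had 10 counts in brain and 0 counts in liver, and did not reach 1 CPM in either library.

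Of the 19 names of alpha subunits, 16 entered. Of these, 4 were called in brain, or 25.0%, and 2 in liver, or 12.5%, beside 14.6% and 11.3% over all names. Their median log2 ratio was 0.77. With plain library size 6 were called in brain and 1 in liver, where 24.2% and 6.02% of all names were. The Go rows count separately here. With rows of 1 subunit summed, 3 of 14 were called in brain and 2 in liver. The brain calls were the G(o) alpha-like row, GNAO1, GNAZ and GNA15, and the liver calls were GNAT1 and GNAI3. Most of the others lay close to equality or moderately higher in brain.

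**Figure D2:**
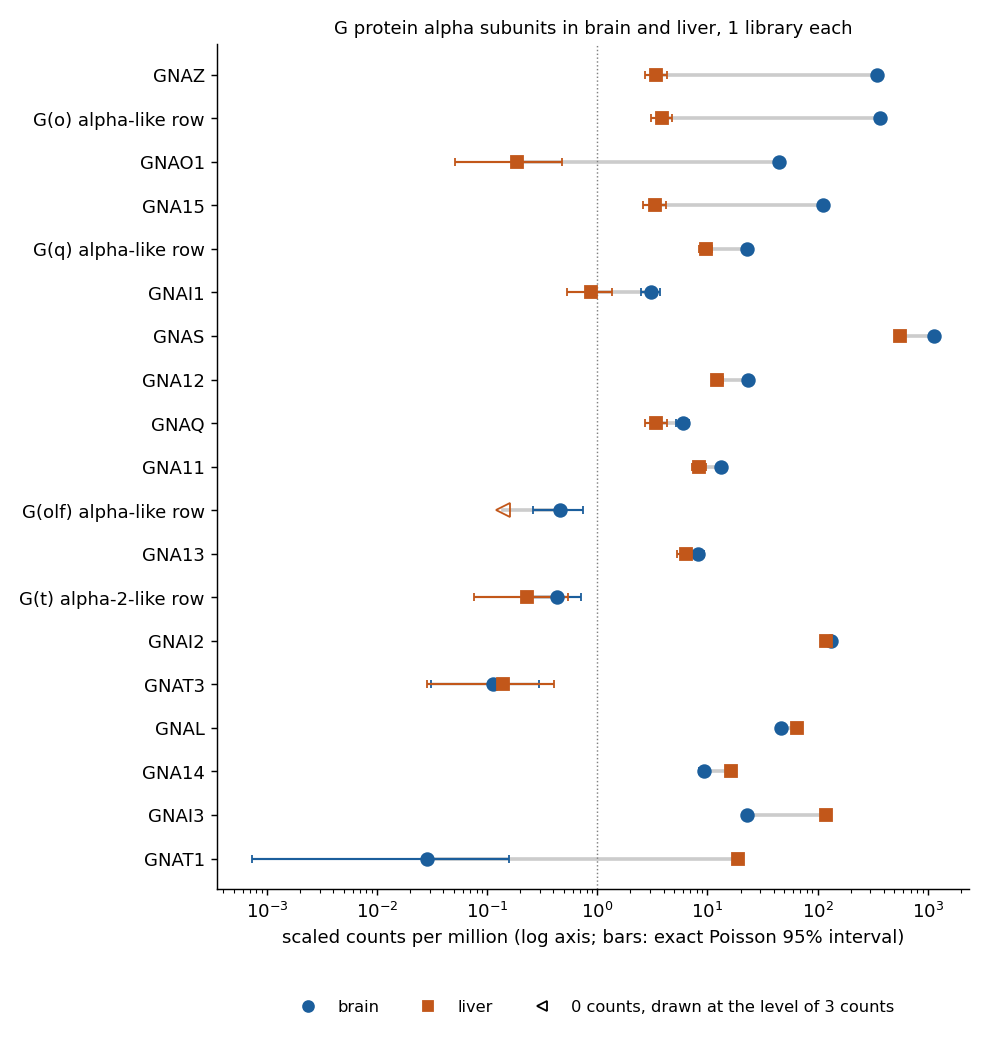
Scaled CPM on a log axis for the 19 names of alpha subunits, brain as circles and liver as squares, with exact Poisson 95% intervals, ordered by the log2 ratio. A triangle marks 0 counts and is drawn at the level of 3 counts. GNAZ and the Go rows are wide apart at the top, with GNAI3 and GNAT1 higher in liver at the bottom.

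The Gi/o subfamily, whose alpha subunits include those that inhibit adenylate cyclase, held both extremes. Go is covered by a pair of neighbouring rows. The G(o) alpha-like row had 12926 counts in brain and 83 counts in liver, or 370 CPM in brain and 3.84 CPM in liver. GNAO1 had 1551 counts in brain and 4 counts in liver, or 44.4 CPM in brain and 0.185 CPM in liver. Summed they were 103-fold higher in brain (83.3 to 128), with a log2 ratio of 6.37. GNAZ, the Gz alpha subunit of neurons and platelets, had 346 CPM in brain and 3.43 CPM in liver, a 101-fold difference (80.4 to 129).

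The 3 Gi alpha genes had lower log2 ratios than the Go rows. GNAI1 had 3.06 CPM in brain and 0.880 CPM in liver, a 3.48-fold difference (2.12 to 6.00). GNAI2, the widely expressed form, had 133 CPM in brain and 120 CPM in liver, a 1.11-fold difference (1.06 to 1.16) and a log2 ratio of 0.15. GNAI3 had 809 counts in brain and 2582 counts in liver, or 23.1 CPM in brain and 120 CPM in liver, 5.17-fold higher in liver (4.77 to 5.60). The log2 ratio of -2.32 passed the call, and missed it with plain library size, at -1.24, and without the 50 highest genes, at -1.88. Of the 3 transducin alpha genes of photoreceptors and taste cells, GNAT3 and the G(t) alpha-2-like row did not reach 1 CPM. GNAT1, of rod photoreceptors, had 1 count in brain and 411 counts in liver, or 0.0286 CPM in brain and 19.0 CPM in liver, 665-fold higher in liver with an interval of 119 to 26336. Of 5 photoreceptor markers, 4 had a row, and they summed to 8.35 CPM in brain, against 5.19 CPM in liver, with PDE6B at 0 counts in liver. Their part in the GNAT1 value was not tested.

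The Gs subfamily stimulates adenylate cyclase. GNAS, its main gene, had 39845 counts in brain and 12189 counts in liver over 2 rows, or 1140 CPM in brain and 564 CPM in liver. The difference was 2.02-fold (1.98 to 2.06), with a log2 ratio of 1.01, and of 2.12 with plain library size. The GNAS row with more counts had 931 CPM in brain, against 447 CPM in liver, and the other had 209 CPM in brain and 117 CPM in liver, so both pointed the same way. GNAL, the form of olfactory neurons and striatum, had 46.6 CPM in brain and 65.6 CPM in liver, 1.41-fold higher in liver (1.31 to 1.51), but its log2 ratio of -0.48 turned to 0.61 with plain library size. A separate G(olf) alpha-like row had 16 counts in brain and 0 counts in liver.

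The Gq/11 subfamily activates phospholipase C beta. The GNAQ row had 5.98 CPM in brain, against 3.43 CPM in liver, and a G(q) alpha-like row of a much longer gene model had 22.7 CPM in brain and 9.63 CPM in liver. Summed they were 2.19-fold higher in brain (1.92 to 2.51). GNA11 had 13.3 CPM in brain and 8.43 CPM in liver, a 1.58-fold difference (1.32 to 1.88). GNA14 had 9.35 CPM in brain and 16.4 CPM in liver (log2 ratio -0.75, and 0.27 with plain library size). GNA15, the form known from blood cells, had 3867 counts in brain and 72 counts in liver, or 111 CPM in brain and 3.33 CPM in liver, a 33.2-fold difference (26.3 to 42.5). Unlike GNA15, the lymphocyte markers had a lower sum in brain (8.67 CPM) than in liver (55.3 CPM), with only CD79A higher in brain. The myeloid marker sum was also lower in brain (85.6 CPM) than in liver (649 CPM), with only CSF1R and ITGAM higher in brain. The part of either list in the GNA15 value was not tested.

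GNA12 and GNA13 make up the G12/13 subfamily. GNA12 had 23.5 CPM in brain and 12.3 CPM in liver, a 1.91-fold difference (1.66 to 2.20). GNA13 had 8.27 CPM in brain and 6.34 CPM in liver, a 1.30-fold difference (1.06 to 1.61). Neither was called.

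As shares of all alpha subunit counts, the Gi/o rows held 40.0% in brain (exact 95% interval 39.7 to 40.3) and 27.9% in liver (27.3 to 28.6). The Gs rows held 51.6% in brain (51.2 to 51.9) and 65.8% in liver (65.2 to 66.4), and the Gq/11 rows 7.04% in brain (6.86 to 7.22) and 4.31% in liver (4.04 to 4.59). Within Gi/o the forms differed, since GNAI2 and GNAI3 held 5.79% and 1.01% of the alpha counts in brain and 12.6% and 12.5% in liver. These are shares of counts, not of molecules. They do not depend on the scaling between libraries, but they are not corrected for transcript length, so they serve to compare the tissues and not the genes.

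Of 5 names of beta subunits, 4 entered, and only GNB5 was called, in brain (25.0% of the 4, beside 14.6% of all names). The median log2 ratio of these 4 was 0.59. GNB2 had 22.5 CPM in brain and 24.0 CPM in liver. Its fold interval, 0.839 to 1.05 for brain over liver, includes equality. Its log2 ratio of -0.09 turned to 0.97 with plain library size. GNB4 had 4.26 CPM in brain and 1.85 CPM in liver, a 2.30-fold difference (1.61 to 3.35), and a beta-4-like row had 1.37 CPM in brain and 0.926 CPM in liver. GNB3, known from cone photoreceptors and taste cells, had 24 counts in brain and 0 counts in liver, and did not reach 1 CPM. GNB5 held 72.3% of the beta counts in brain (70.8 to 73.7) and 20.5% in liver (17.6 to 23.6). GNB1, the common beta subunit, was not analysed here, so these shares are not those of the whole class.

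**Figure D3:**
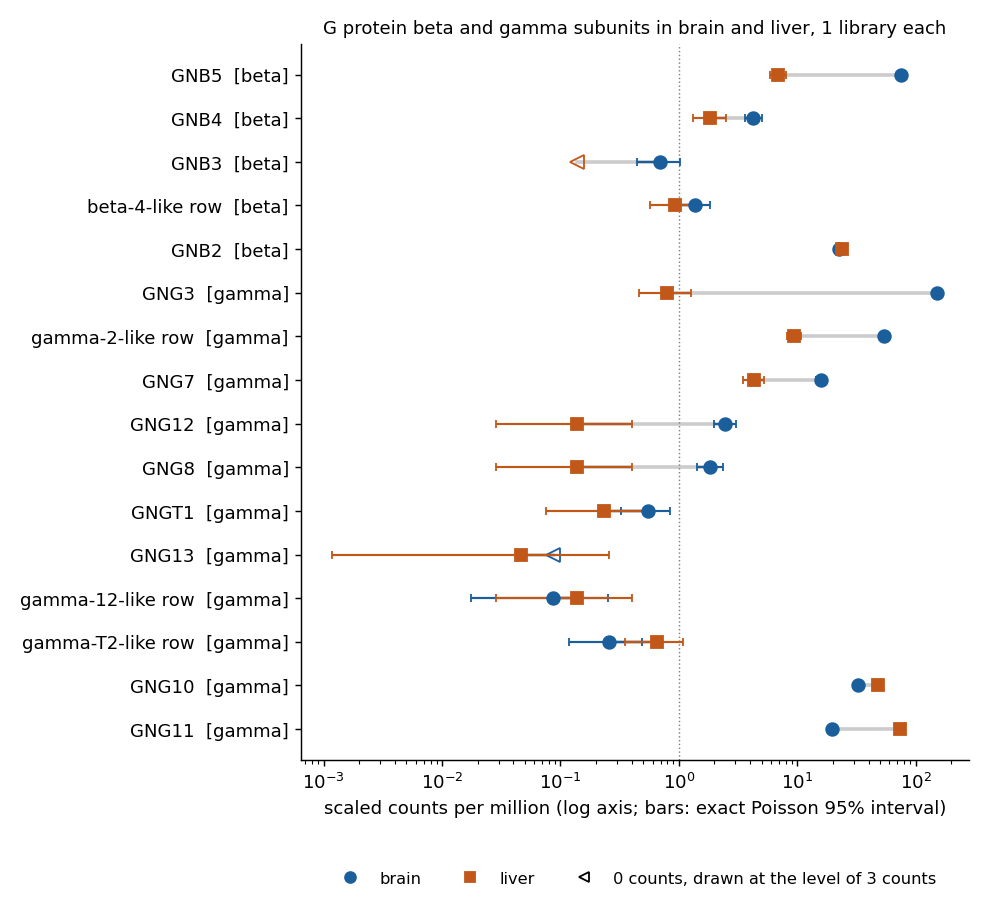
Scaled CPM on a log axis for the 5 names of beta subunits and the 11 of gamma subunits, brain as circles and liver as squares, with exact Poisson 95% intervals. A triangle marks 0 counts and is drawn at the level of 3 counts. GNB5 and GNG3 are far higher in brain, GNB2 overlaps, and GNG11 and GNG10 are higher in liver.

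Of 11 names of gamma subunits, 7 entered, and 2 of these were called in brain (28.6%) and 0 in liver, beside 14.6% and 11.3% of all names, with a median log2 ratio of 1.60. GNG3, a gamma subunit of neurons, had 5287 counts in brain and 17 counts in liver, or 151 CPM in brain and 0.787 CPM in liver. This was a 192-fold difference (120 to 330) with a log2 ratio of 6.41. Among the 46 names of the 4 classes that entered it was the highest, but not with plain library size, at 7.18 beside 7.26 for GNAZ, or with 5 CPM added, at 4.75 beside 5.41 for the G(o) alpha-like row. The gamma-2-like row had 53.6 CPM in brain and 9.45 CPM in liver, a 5.68-fold difference (4.91 to 6.59) and a log2 ratio of 2.39. GNG7, known from striatal neurons, had 15.8 CPM in brain and 4.31 CPM in liver, a 3.67-fold difference (2.94 to 4.63), and a log2 ratio of 1.66 that reached 2.62 with plain library size.

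GNG8 and GNG12 were low. GNG8 had 64 counts in brain and 3 counts in liver, a ratio of 13.2 (4.31 to 65.6) and a log2 ratio of 1.31. GNG12 had 86 counts in brain and 3 counts in liver, a ratio of 17.7 (5.86 to 87.6) and a log2 ratio of 1.60. Both reached the call with 0.1 CPM added.

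A pair of gamma subunits of wide expression were higher in liver. GNG11 had 691 counts in brain and 1587 counts in liver, or 19.8 CPM in brain and 73.5 CPM in liver, 3.72-fold higher in liver (3.40 to 4.07). Just short of the call, its log2 ratio of -1.84 became -0.76 with plain library size. GNG10 had 32.9 CPM in brain and 48.5 CPM in liver, 1.47-fold higher in liver (1.36 to 1.61), but its log2 ratio of -0.55 turned to 0.54 with plain library size. GNG11 held 7.10% of the gamma counts in brain (6.60 to 7.63) and 53.3% in liver (51.5 to 55.1), and GNG3 held 54.3% in brain (53.3 to 55.3) and 0.571% in liver (0.333 to 0.912). The gamma subunits GNG4 and GNG5 were not analysed here, so these shares are not those of the whole class. Endothelial markers with a row (3 of 4) summed to 46.4 CPM in brain, against 324 CPM in liver, with none at 0, and their part in the GNG11 value was not tested. GNGT1, GNG13, the gamma-12-like row (GNG14 in RefSeq) and the gamma-T2-like row did not reach 1 CPM in either library.

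**Figure D4:**
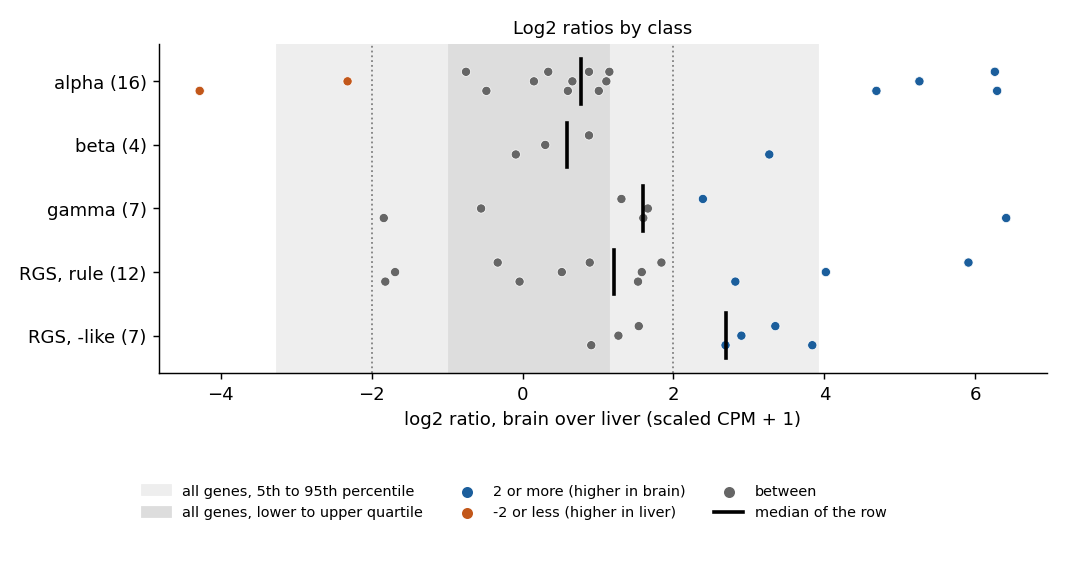
Log2 ratio, brain over liver, of each name that entered, by class, with the number of names in parentheses, beside the 5th to 95th percentile and the lower to upper quartile of all names that entered. Black bars are medians and dotted lines mark the call at 4-fold. Each class spreads over a wide range, with medians of 0.77 for alpha, 0.59 for beta, 1.60 for gamma and 1.21 for the 12 RGS genes.

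Over the 4 classes together, 46 of 55 names entered. Of these, 14 were called in brain, or 30.4%, and 2 in liver, or 4.35%, beside 14.6% and 11.3% of all names. Rows that may belong to the same gene, such as the Go rows, are counted separately in these figures. A log2 ratio above 0 was found for 35 of the 46, against 50.3% of all names that entered. The log2 ratios ran from -4.28 for GNAT1 to 6.41 for GNG3, with a median of 1.13. Plain library size raised the log2 ratio of each of the 55 names, and moved the median of all names by 0.95 toward brain, so the signs given are those after TMM scaling.

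Effectors and other regulators of G proteins were taken from 5 lists. All 4 G protein-gated potassium channel genes entered, and 3 were called in brain and 0 in liver, beside 14.6% and 11.3% of all names (median log2 ratio 3.63). KCNJ6 had 38.5 CPM in brain and 0.185 CPM in liver, KCNJ3 had 24.1 CPM in brain and 0.185 CPM in liver, while KCNJ9 had 217 counts in brain and 0 counts in liver, with a lower 95% limit of 36.0 on the fold. These channels open when beta-gamma dimers of Gi/o bind them.

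Of 8 adenylate cyclase genes that entered, 4 were called in brain and 0 in liver, beside 14.6% and 11.3% of all names (median 0.94). ADCY2 was at 125 CPM in brain and 0.695 CPM in liver, ADCY5 at 41.1 CPM in brain, against 5.19 CPM in liver, and ADCY8 at 29.2 CPM in brain and 5.19 CPM in liver. The remaining call was ADCY1, at 31.1 CPM in brain and 0.232 CPM in liver, named after its value was seen. Of the 4 phospholipase C beta genes, PLCB1 and PLCB4 were called in brain and 0 in liver, against the same shares of all names (median 1.25). PLCB1 had 194 CPM in brain, against 27.2 CPM in liver, and PLCB4 had 38.0 CPM in brain and 0.741 CPM in liver, while PLCB3 had 23.3 CPM in brain and 28.9 CPM in liver, with a log2 ratio of -0.30 that turned to 0.77 with plain library size.

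Receptor kinases and arrestins switch receptors off. Of 8 receptor kinase and arrestin genes that entered, 1 was called in brain and 0 in liver, beside 14.6% and 11.3% of all names (median 0.91). It was GRK4, named after its value was seen, at 121 CPM in brain and 19.4 CPM in liver. ADRBK1, also known as GRK2, had 130 CPM in brain and 47.5 CPM in liver, ADRBK2 had 92.2 CPM in brain, against 49.3 CPM in liver, and ARRB1, an arrestin, had 70.9 CPM in brain and 146 CPM in liver. The log2 ratio of ARRB1 was -1.03, and 0.07 with plain library size.

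Of 12 genes for chaperones, exchange factors and anchors that entered, 5 were called in brain and 0 in liver, beside 14.6% and 11.3% of all names (median 0.93). CCDC88A, an exchange factor for Gi alpha subunits, had 302 CPM in brain and 22.5 CPM in liver. RIC8B, a chaperone for Gs-type alpha subunits, had 36.2 CPM in brain, against 18.3 CPM in liver, and PDCL3, a phosducin-like protein, had 45.1 CPM in brain and 65.3 CPM in liver, with a log2 ratio of -0.52 and of 0.57 with plain library size. The other brain calls of this list were RGS7BP and GPR158, with values given already, GIPC1 and PDCL2. GIPC1 had 29.8 CPM in brain, against 3.47 CPM in liver, and PDCL2 had 13.3 CPM in brain and 0.0926 CPM in liver, both named after their values were seen. No gene in these 5 lists was called in liver.

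**Figure D5:**
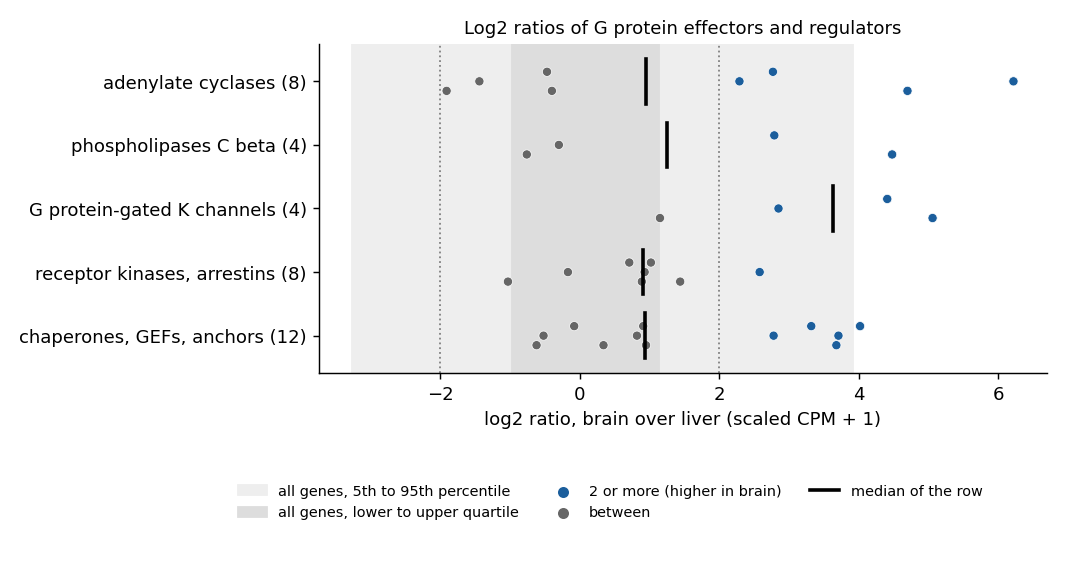
Log2 ratio, brain over liver, of the genes of 5 effector and regulator lists that entered, with the number of genes in parentheses, beside the 5th to 95th percentile and the lower to upper quartile of all names that entered. Black bars are medians and dotted lines mark the call at 4-fold. The median of the potassium channel list, 3.63, lies to the right of the other 4 medians plotted, which run from 0.91 to 1.25.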

How the data were processed

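RNA from brain and liver was sequenced on an Illumina HiSeq instrument, per the series' design text, with 1 library each. The authors deposited raw counts per gene row, 21817 rows in all. TopHat and the builds Sscrofa10.2 and susScr3 are named, per the submitters' processing notes. How reads were counted, and whether by strand, is not given in the sources used here. A gene length deposited by the authors was read as a genomic span, so levels of different genes were not compared.

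Rows of 1 name were summed to 21653 names. Scaling used TMM in edgeR 4.0.16 with no test. The factors of 1.47 (brain) and 0.681 (liver) made 1 CPM equal to 35.0 counts in brain, against 21.6 counts in liver. Plots draw a count of 0 at 3 counts. Every family member at 1 CPM or more was named, and of each effector or regulator list the 3 genes with the highest mean level. Marker lists are given by their sums, with single markers chosen after their values were seen. The gene family and lists were chosen with earlier results of these data known. 1 list is not reported here. Scaling and calling were tested on simulated counts that gave both libraries the same profile apart from a set of altered genes. Such counts cannot show whether TMM suits tissues as unlike as these. Alternatives were other pseudocounts, filters, call thresholds and scalings (with DESeq2 1.42.0 for median of ratios), the highest row per name and other product wordings.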

Additional observations from a re-analysis of the deposited data

How the results depend on the processing

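No paired analysis was possible because each tissue has 1 library. Plain library size moved the median log2 ratio of all names by 0.95 toward brain, and leaving out the 50 highest genes moved it by 0.42, so counts in brain grow under both. Over all names, 24.2% were then called in brain with plain library size and 19.3% without those genes, beside 14.6% with TMM. In liver the shares were 6.02% and 9.05%, beside 11.3% with TMM. The number of RGS genes called in brain, 3 of 12, was 6 with either of these scalings and 6 at a 2-fold call. It was 7 of 19 with names ending in "-like" kept. RGS calls in liver were 2 with a pseudocount of 0.1 and 2 at 2-fold. Alpha subunits called in brain, 4 of 16, were 7 at 2-fold and 1 of 9 with the unhyphenated wording alone. Alpha subunits called in liver, 2, were 1 at 8-fold, with plain library size, without those 50 genes and with the hyphenated or the unhyphenated wording alone. Gamma subunits called in brain, 2 of 7, were 4 with a pseudocount of 0.1, without those 50 genes or with plain library size, 5 at 2-fold, 1 at 8-fold and 0 of 1 with the unhyphenated wording alone. Gamma subunits called in liver were 1 at 2-fold. Shares of all names were not computed at 2-fold, at 8-fold or with other pseudocounts. The counts under those settings therefore cannot be set beside a share of all names. The cause of the differences between settings was not tested. The remaining 86 of 106 recomputed class counts were within 1.5 times. No called member changed sign in 276 recomputed log2 ratios. The unhyphenated wording alone, the summing of rows of 1 subunit and the subtraction of liver carry-over at the ALB percentage, 0.0262%, were chosen after the data were seen. No beta subunit entered with the unhyphenated wording alone. Depth limits the ratios of names with 1 to 9 counts in a library, such as RGS7BP, RGS22 and GNAT1.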

Other observations

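In the order of gene numbers in the table, GNAT1 lies between SEMA3F, with 34 counts in brain and 238 counts in liver, and SLC38A3, an amino acid transporter gene with 24.1 CPM in brain and 186 CPM in liver. GNAI2, the next row on that side, had 133 CPM in brain and 120 CPM in liver. GNA15 lies between S1PR4, with 0 counts in brain and 2 counts in liver, and CELF5, an RNA-binding protein gene, at 86.9 CPM in brain and 29.5 CPM in liver. An unnamed row between RGS5 and RGS4 had 54.9 CPM in brain and 2.41 CPM in liver, a log2 ratio of 4.04. Whether reads of neighbouring genes entered the GNAT1, GNA15 or RGS4 rows was not tested.

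The neighbours RGS2, RGS1, RGS21 and RGS18, consecutive in the table, did not share a direction. Their log2 ratios were 1.53, -0.33, 0.36 and -1.69. RGS21 did not reach 1 CPM in either library, and the fold interval of RGS1 includes equality, so only RGS2 and RGS18 have a direction beyond counting error. RGSL1 and RGS16, also adjacent, had 0.89 and -1.82.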
